A study of Mus musculus with 4 samples.

Results

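The genes described here are 30 named genes of the peroxisome, 18 for oxidation enzymes and acyl-CoA transporters and 12 of the Pex family, whose proteins build the organelle. They were chosen by gene symbol; the rule uses no measured value, though earlier results of these data were known when it was written. Of the 30, 28 had a row of their own in the deposited table of 22849 gene symbols (17 oxidation genes and 11 Pex genes). Acaa1b and Pex13 stood only in rows shared with a neighbouring gene and were kept apart. Liver RNA came from male C57BL/6 mice, of unstated age. The mice of both groups ate a high fat diet (60% fat) for 12 weeks. In one group the food also held UAB126 at 1.2 g per kg, and the other group, called vehicle, had none. UAB126 is known here by its code name alone. Each group had 2 libraries. Nothing in the labels says that these came from separate animals, so p-values measure the spread between 4 libraries, part of which may be technical.

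Peroxisomes shorten fatty acids that mitochondria handle poorly, such as very long, branched and dicarboxylic chains. ABCD transporters import the acyl-CoAs. An acyl-CoA oxidase, a bifunctional hydratase and dehydrogenase, and a thiolase then remove acetyl-CoA in turns, and the oxidase yields hydrogen peroxide, which catalase destroys. Many of these genes are classical targets of the nuclear receptor PPAR-alpha in rodent liver, where its agonists enlarge the peroxisome compartment. Pex proteins (peroxins) insert membrane proteins, import matrix enzymes and divide the organelle. All levels below are FPKM, fragments scaled by transcript length and library size. All differences are log2(FPKM + 1) in UAB126 minus vehicle, with limma's moderated SE after ± (n = 2 per group).

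The libraries were not alike in ways that touch these genes. Relative to UAB126 replicate 1, the sequencing depth read from low values was 0.691 and 0.404 in vehicle replicates 1 and 2 and 0.703 in UAB126 replicate 2. The absolute depth is unknown. Short transcripts ran high in vehicle replicate 2 and low in UAB126 replicate 1, by medians of 0.47 and -0.43 from the gene mean among the 980 tested genes with the shortest transcripts. Genes with a mean of at least 100 FPKM had a median difference of -0.39 (1036 genes), against -0.03 over all 10786 tested genes. Of 12 hepatocyte markers with a row of their own, 7 were lower and 2 higher in both UAB126 libraries, where 26.9% of all genes were lower and 22.7% higher. None passed the threshold, and they summed to 77689 to 146487 FPKM in vehicle and 42227 to 61717 FPKM with UAB126. Albumin, the transcript that defines hepatocytes, has a value of 32243 FPKM in vehicle replicate 2 and is listed at 0 in the other 3 libraries. Without it the markers summed to 77689 and 114244 FPKM in vehicle, still above both UAB126 libraries. The highest sum was in vehicle replicate 2 and the lowest in UAB126 replicate 1, the library order of short transcripts. The part of transcript length and of level in these sums was not tested. Kupffer cell and macrophage markers summed to 55.2 to 158.8 FPKM in vehicle and 142.6 to 153.2 FPKM with UAB126 (3 of 7 higher in both UAB126 libraries and 0 lower, to be read against the same shares). The endothelial sums were 56.2 to 95.9 against 88.2 to 106.2 FPKM, and the stellate sums 129.4 to 164.3 against 141.9 to 145.8 FPKM. Cholangiocyte markers summed to 56.3 to 70.9 against 54.5 to 54.7 FPKM, B and T cell markers to 3.11 to 7.09 against 4.53 to 9.14 FPKM, and adipocyte markers to 6.62 to 8.45 against 4.73 to 13.8 FPKM. In whole liver, fewer cells of a type and less RNA per cell cannot be told apart.

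The comparison is of liver RNA with and without UAB126 in the same fat-rich food. In the peroxisome a small set of genes was higher with UAB126 (Ehhadh, Abcd2, Crot and Abcd3), while a larger set that includes Pecr, Phyh, Scp2, Acaa1a and Pex16 was lower. No gene of either kind passed the threshold. Of 17 oxidation genes and 11 Pex genes tested, 0 had an adjusted p under 0.05 (limma, Benjamini-Hochberg over all 10786 genes), where 0.139% of all genes did (0.0464% higher and 0.0927% lower). At an unadjusted limma p under 0.05 there were 2 higher and 3 lower oxidation genes and 0 higher and 2 lower Pex genes. The shares among all tested genes were 5.03% higher and 8.38% lower. Both UAB126 libraries lay above both vehicle libraries in 4 oxidation genes (23.5%) and 0 Pex genes, against 22.7% of all genes. They lay below in 7 oxidation genes (41.2%) and 5 Pex genes (45.5%), against 26.9% of all genes. Over the 28 genes together, 14.3% lay above and 42.9% below, so higher genes were no more frequent here than among all genes. All 28 genes had been kept by the filter, a mean of at least 1 FPKM.

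**Figure D1:**
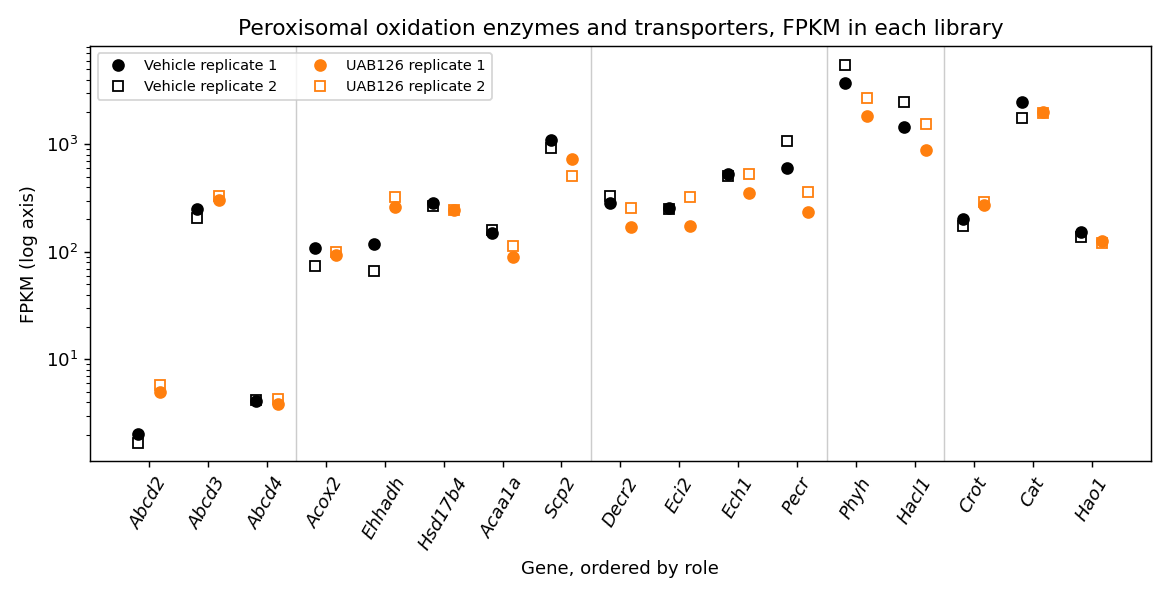
FPKM on a log axis of the 17 oxidation enzymes and transporters, ordered by role (vertical lines part the roles), with a point for each library (black, vehicle; orange, UAB126; filled circles, replicate 1; open squares, replicate 2). Both orange points lie above both black points in Abcd2, Abcd3, Ehhadh and Crot, and below them in 7 genes, among them Pecr (235 and 361 FPKM against 599 and 1074 FPKM).

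Among the importers, Abcd2 and Abcd3 were higher with UAB126 and Abcd4 was not. Abcd2 encodes ALDRP, a transporter for very long and polyunsaturated acyl-CoAs (mm10, chromosome 15, 91145871 to 91191799, minus strand). It measured 2.04 and 1.69 FPKM without UAB126 and 4.93 and 5.85 FPKM with it. Abcd2 was the lowest of the 17 oxidation genes in vehicle, and both UAB126 libraries exceeded both vehicle libraries. The ratio of means was 2.89 and the log2 difference 1.16 ± 0.20 (limma adjusted p = 0.161), with a range of 1.05 to 1.26 over the fits without 1 library. Without vehicle replicate 1 the limma adjusted p was 0.0391, in a fit where the lone vehicle library is assumed to vary like the UAB126 libraries and 442 of all genes passed in place of 15. Without each of the other 3 libraries it was 0.166 to 0.733.

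Abcd3 encodes PMP70, the most abundant of the peroxisomal ABC transporters in liver, which also carries bile acid precursors and dicarboxylic acids (chromosome 3, 121758774 to 121815302, minus strand). Its level was 253 and 208 FPKM in vehicle, compared with 304 and 331 FPKM under UAB126. The means stood at a ratio of 1.38. The groups did not overlap, but the difference of 0.47 ± 0.24 did not pass (95% interval -0.14 to 1.07, limma adjusted p = 0.431). Abcd4, a relative that works in lysosomal vitamin B12 release, stood at 4.10 and 4.21 FPKM in the vehicle libraries and at 3.87 and 4.30 FPKM in the treated libraries. Its groups overlapped (log2 difference -0.02, 95% interval -0.47 to 0.42).

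Of 5 beta-oxidation core genes tested, 1 was higher and 3 were lower in both UAB126 libraries, where 22.7% and 26.9% of all genes were. Ehhadh, the L-bifunctional enzyme that joins the hydratase and dehydrogenase steps and acts on dicarboxylic acids, lies on chromosome 16 (21761287 to 21787807, minus strand). It had 118 and 66.6 FPKM in vehicle, compared with 260.0 and 325 FPKM under UAB126. The lower UAB126 library exceeded the higher vehicle library, though the vehicle libraries themselves stood well apart. Ehhadh had a ratio of means of 3.16 and the highest log2 difference of the 28 genes, 1.70 ± 0.34 (95% interval 0.84 to 2.56, limma adjusted p = 0.211). The difference was 1.29 without vehicle replicate 2 and 2.11 without vehicle replicate 1. In that last fit, again with a lone vehicle library, the limma adjusted p was 0.0330, and without each of the other 3 libraries it was 0.271 to 0.809. With the length trend removed it was 1.72, and after quantile normalization 2.00.

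Hsd17b4 encodes the D-bifunctional enzyme, which performs the same steps for branched chains and bile acid precursors. It read 286 and 269 FPKM in the 2 vehicle libraries and 247 and 246 FPKM in the 2 UAB126 libraries. The groups did not overlap, yet the difference was small at -0.17 ± 0.22 (limma adjusted p = 0.732), and it turned to 0.20 after quantile normalization. Acox2, an oxidase of bile acid precursors, measured 108 and 74.3 FPKM without UAB126 and 92.8 and 99.9 FPKM with it. Its UAB126 libraries lay between the vehicle libraries (0.10, 95% interval -0.55 to 0.75).

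The thiolases closing the cycle were lower on the deposited scale, and by less after quantile normalization (Acaa1a -0.32, Scp2 -0.29 with overlap, and the row holding Acaa1b -0.12 with overlap). Acaa1a, a 3-ketoacyl-CoA thiolase (chromosome 9, 119339676 to 119350299, plus strand), stood at 151 and 158 FPKM in the vehicle libraries and at 88.8 and 112 FPKM in the treated libraries. All UAB126 values lay below all vehicle values, with a ratio of means of 0.650 and a difference of -0.63 ± 0.23 (limma unadjusted p = 0.0384, adjusted p = 0.346). Its close copy Acaa1b, of the same chromosome (119148023 to 119157093, minus strand), appeared only in a row that also names Plcd1, a phospholipase gene. That shared row had 3479 and 2976 FPKM in vehicle, compared with 1665 and 2138 FPKM under UAB126, a ratio of means of 0.589 (-0.77 ± 0.31, limma adjusted p = 0.375). The row cannot be divided between Acaa1b and Plcd1, and reads of 2 near-identical thiolases may be split between their rows, so each of the values is uncertain. Scp2, whose longer product is the thiolase for branched chains and whose shorter product binds sterols, read 1103 and 923 FPKM in the 2 vehicle libraries and 736 and 509 FPKM in the 2 UAB126 libraries. Here too the groups did not overlap, with a ratio of means of 0.614 (-0.72 ± 0.31, limma adjusted p = 0.390).

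The auxiliary enzymes Decr2, Eci2 and Ech1 reshape double bonds so that unsaturated chains can enter the cycle. Pecr, a trans-2-enoyl-CoA reductase (chromosome 1, 72259167 to 72284314, minus strand), was only grouped with them here. Pecr had the lowest difference of the 28 genes. It measured 599 and 1074 FPKM without UAB126 and 235 and 361 FPKM with it. The highest UAB126 value was below the lowest vehicle value, and the gap between the vehicle libraries was wider than the gap between the groups. The ratio of means was 0.356 and the difference -1.46 ± 0.40 (95% interval -2.46 to -0.46, limma adjusted p = 0.270). Its longest transcript of 1186 bases was the shortest of the 28, vehicle replicate 2 was its highest library and UAB126 replicate 1 its lowest. That is the order of libraries seen in short transcripts at large, and with the length trend removed the difference was -1.10.

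The other genes of this group differed less. Decr2, 2,4-dienoyl-CoA reductase, stood at 282 and 329 FPKM in the vehicle libraries and at 169 and 257 FPKM in the treated libraries, without overlap (-0.54 ± 0.29, limma adjusted p = 0.445). Eci2, an enoyl-CoA isomerase, was at 258 and 248 FPKM in vehicle, and the UAB126 libraries lay on either side with 175 and 325 FPKM. Ech1, a dienoyl-CoA isomerase, had 533 and 511 FPKM in vehicle, compared with 352 and 534 FPKM under UAB126. In Decr2, Eci2, Ech1 and Pecr alike, UAB126 replicate 1 was the lowest of the 4 libraries, so the spread between the UAB126 libraries weighs on all 4 estimates.

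Both alpha-oxidation genes had lower means with UAB126. Alpha-oxidation removes 1 carbon from phytanic acid, a branched fatty acid of the diet, so that beta-oxidation can follow. Phyh, phytanoyl-CoA hydroxylase (chromosome 2, 4919019 to 4938730, plus strand), had the highest level of the 28 genes. It read 3682 and 5483 FPKM in the 2 vehicle libraries and 1852 and 2703 FPKM in the 2 UAB126 libraries. The groups did not overlap, the ratio of means was 0.497 and the difference -1.01 ± 0.38 (limma unadjusted p = 0.0424, adjusted p = 0.358). It shrank to -0.73 with the length trend removed and to -0.19 after quantile normalization. Hacl1, the lyase of the next step, measured 1436 and 2448 FPKM without UAB126 and 884 and 1533 FPKM with it. These groups overlapped, since UAB126 replicate 2 exceeded vehicle replicate 1 (-0.69 ± 0.43, limma adjusted p = 0.491). Vehicle replicate 2 was the highest and UAB126 replicate 1 the lowest library for both genes.

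Of the genes for export and peroxide handling, Crot was higher, catalase overlapped and Hao1 was slightly lower. Crot encodes carnitine octanoyltransferase, which prepares shortened chains for transfer to mitochondria (chromosome 5, 8966033 to 8997324, minus strand). It stood at 203 and 172 FPKM in the vehicle libraries and at 270.4 and 288 FPKM in the treated libraries. The libraries of each group lay close together and apart from the other group, a ratio of means of 1.49 (0.58 ± 0.23, 95% interval -0.005 to 1.16, limma adjusted p = 0.375). Over the fits without 1 library the difference ran from 0.46 to 0.69. Cat was at 2469 and 1774 FPKM in vehicle, and the UAB126 libraries lay between at 1992 and 1942 FPKM (-0.09, 95% interval -0.88 to 0.70). Hao1, a glycolate oxidase that makes peroxide, had 155 and 137 FPKM in vehicle, compared with 125 and 122 FPKM under UAB126 (-0.24 ± 0.21, limma adjusted p = 0.609). Its groups did not overlap, but the direction turned after quantile normalization (0.10).

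To show examples of the starts of higher and lower genes, upstream sequence was taken from RefSeq (GRCm38.p6), which held 30 promoter entries for 25 of the 30 genes. Each line shows 250 bases ending just before the transcript start, 5′ to 3′ on the strand of the gene. Ehhadh and Abcd3 are examples of the genes with higher levels, and Phyh and Scp2 of those with lower levels. Capitals mark matches to AGGNCA on either strand, the hexamer that PPAR-alpha and its partner RXR bind in pairs. They are at chr16:21787835-21788084 (Ehhadh, minus strand), chr3:121815303-121815552 (Abcd3, minus), chr2:4918746-4918995 (Phyh, plus) and chr4:108118548-108118797 (Scp2, minus).
Ehhadh: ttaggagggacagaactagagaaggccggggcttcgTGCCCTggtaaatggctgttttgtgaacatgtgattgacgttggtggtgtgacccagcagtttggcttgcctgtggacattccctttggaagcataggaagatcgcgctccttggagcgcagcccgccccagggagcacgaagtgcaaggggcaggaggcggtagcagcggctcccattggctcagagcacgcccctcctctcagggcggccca
Abcd3: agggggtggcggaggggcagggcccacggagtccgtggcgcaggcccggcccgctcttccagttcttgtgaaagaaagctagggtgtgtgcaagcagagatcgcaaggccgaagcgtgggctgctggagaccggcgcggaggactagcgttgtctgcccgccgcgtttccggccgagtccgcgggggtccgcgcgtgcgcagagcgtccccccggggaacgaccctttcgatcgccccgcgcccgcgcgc
Phyh: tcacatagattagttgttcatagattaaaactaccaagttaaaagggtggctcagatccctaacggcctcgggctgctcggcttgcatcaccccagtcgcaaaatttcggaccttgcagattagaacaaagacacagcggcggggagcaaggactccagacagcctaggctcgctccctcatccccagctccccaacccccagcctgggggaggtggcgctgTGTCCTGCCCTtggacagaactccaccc
Scp2: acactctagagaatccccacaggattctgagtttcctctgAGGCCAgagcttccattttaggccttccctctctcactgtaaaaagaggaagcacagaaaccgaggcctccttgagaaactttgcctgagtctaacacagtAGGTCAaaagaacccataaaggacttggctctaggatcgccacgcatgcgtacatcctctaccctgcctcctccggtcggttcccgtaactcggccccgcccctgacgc

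The Ehhadh stretch held 1 match, which begins at position -214, and the Abcd3 stretch held none (a second RefSeq start of Abcd3, not shown, had 1 match at -38). Phyh, whose level was lower, held matches that begin at -28 and -23 and share a base. Scp2 held matches at -210 and -109, the latter the stricter form AGGTCA. Over 250 bases before and 50 after the start, AGGNCA on either strand was in 21 of the 30 entries (70.0%) and in 57.2% of the 32851 RefSeq mouse promoters of that length. AGGTCA was in 3 of 30, against 16.3% of all. The paired form, AGGNCA followed after 1 base by a further AGGNCA, was in 0 of 30 and in 0.381% of all. Of genes not shown, Crot (higher) had an AGGNCA match at -10, and Hao1, Pex16 and Pex26 (lower) had matches within the same bounds. Pecr, Acaa1a, Decr2, Pex7 and Pex10 (lower) had none, so the stretches shown do not represent either set. These are matches of letters, and PPAR-alpha elements further from the start would not be seen in this window.

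None of the Pex genes was higher in both UAB126 libraries. Pex16, which inserts membrane proteins in the first stage of assembly, had the lowest difference among them (chromosome 2, 92374676 to 92381217, plus strand). It read 139.9 and 132 FPKM in the 2 vehicle libraries and 78.7 and 100.3 FPKM in the 2 UAB126 libraries, and it was the most abundant of the 11 Pex genes in vehicle. The groups did not overlap, with a ratio of means of 0.659 (-0.61 ± 0.23, limma unadjusted p = 0.0423, adjusted p = 0.357). Its longest transcript has 1392 bases, and the difference was -0.32 with the length trend removed. Its partners in membrane assembly overlapped between groups. Pex3, the membrane anchor, was at 16.4 and 11.9 FPKM against 11.4 and 12.2 FPKM. Pex19, the soluble chaperone of membrane proteins, was at 53.8 and 42.4 FPKM against 42.1 and 44.4 FPKM.

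**Figure D2:**
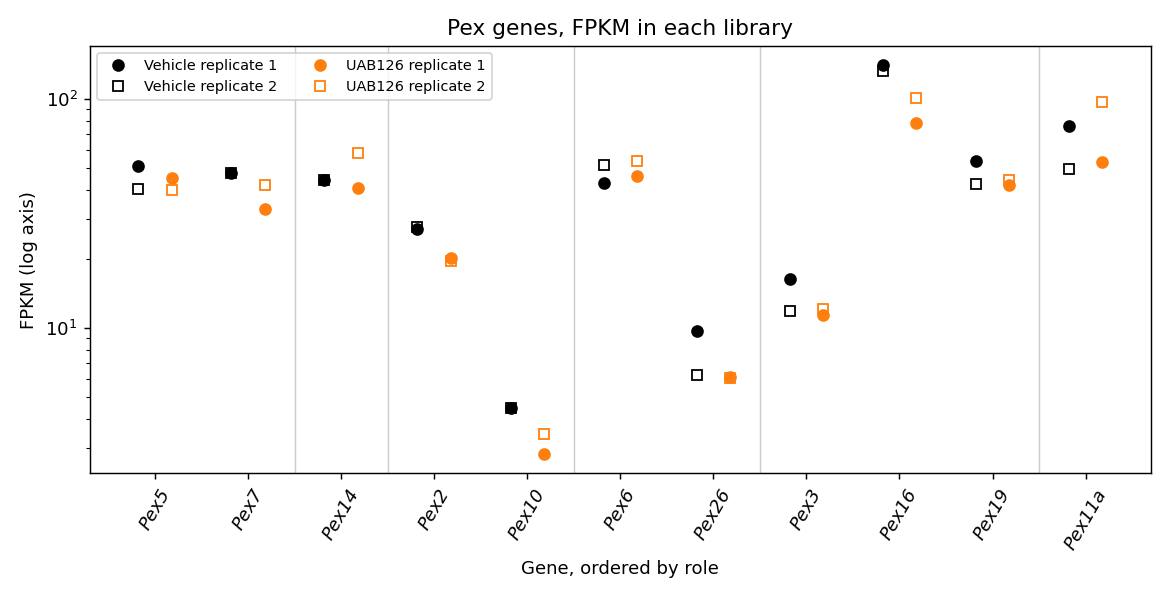
FPKM on a log axis of the 11 Pex genes, ordered by role (vertical lines part the roles), with a point for each library (black, vehicle; orange, UAB126; filled circles, replicate 1; open squares, replicate 2). Pex7, Pex2, Pex10, Pex26 and Pex16 have both orange points below both black points, as Pex2 with 20.1 and 19.5 FPKM against 26.9 and 27.7 FPKM.

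The RING ubiquitin ligase, which recycles the import receptor, was measured through Pex2 and Pex10, and each was lower in both UAB126 libraries. Pex2 (chromosome 3, 5560188 to 5576239, minus strand) measured 26.9 and 27.7 FPKM without UAB126 and 20.1 and 19.5 FPKM with it. Its libraries lay close together within each group. The ratio of means was 0.726 and the difference -0.44 ± 0.18 (limma unadjusted p = 0.0498, adjusted p = 0.372), from -0.46 to -0.42 over the fits without 1 library. Pex10 stood at 4.49 and 4.48 FPKM in the vehicle libraries and at 2.81 and 3.45 FPKM in the treated libraries (-0.41 ± 0.19, limma adjusted p = 0.406).

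Among the import receptors and the docking complex, only Pex7 was lower in both UAB126 libraries, and the rest overlapped. Pex5, the receptor for the common C-terminal targeting signal, had 50.8 and 40.5 FPKM in vehicle, compared with 45.0 and 40.0 FPKM under UAB126, with overlap. Pex7, the receptor for the N-terminal signal that thiolase and Phyh carry, read 47.6 and 47.7 FPKM in the 2 vehicle libraries and 33.0 and 42.1 FPKM in the 2 UAB126 libraries (-0.35 ± 0.21, limma adjusted p = 0.487). Its groups did not overlap, and with 8099 bases its longest transcript is the longest of the 28, so that removal of the length trend made the difference larger, at -0.48. Pex14, the docking protein, was at 44.3 FPKM in each vehicle library, and UAB126 replicates 1 and 2 lay on either side at 40.7 and 58.1 FPKM. Pex13, its partner, shares a row with 0610010F05Rik, which measured 28.1 and 19.3 FPKM without UAB126 and 21.1 and 20.4 FPKM with it.

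Of the receptor export machinery, the ATPase gene Pex6 stood at 43.0 and 51.5 FPKM in the vehicle libraries and at 46.0 and 53.7 FPKM in the treated libraries. Pex26, which anchors that ATPase to the membrane, had 9.70 and 6.24 FPKM in vehicle, compared with 6.08 and 6.05 FPKM under UAB126. Its groups did not overlap, but the gap rests on vehicle replicate 1, without which the difference was -0.04 in place of -0.32. Pex11a, the PPAR-alpha-inducible factor of peroxisome division, read 76.1 and 49.2 FPKM in the 2 vehicle libraries and 53.0 and 97.3 FPKM in the 2 UAB126 libraries. The libraries interleaved, and the 95% interval of the difference ran from -0.72 to 1.18.

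The differences ranged from -1.46 (Pecr) to 1.70 (Ehhadh) among oxidation genes and from -0.61 (Pex16) to 0.23 (Pex11a) among Pex genes. Their medians were close, at -0.17 for 17 oxidation genes and -0.23 for 11 Pex genes, against -0.03 over all tested genes. The gap of 0.06 between the medians is under its spread between replicate libraries (SD 0.07) and changed sign without vehicle replicate 1 (-0.09). The sets also differed in level, with a median vehicle level of 253 FPKM for oxidation and 45.6 FPKM for Pex genes. Of the oxidation genes 14 had a mean of at least 100 FPKM, and of the Pex genes 1 (Pex16). The median of all 1036 genes at that level was -0.39, and after quantile normalization -0.003. Quantile normalization moved the oxidation median to 0.18 and that of the Pex genes to -0.19. With it, 4 oxidation genes lay above and 4 below in both treated libraries, where the deposited scale gave 4 and 7. Of the Pex genes 2 (Pex14 and Pex6) then lay above. The shares of all genes on each side after quantile normalization were not computed. Ehhadh, Abcd2, Crot and Abcd3 were higher in both UAB126 libraries under each of these scalings and with the length trend removed. Pecr, Phyh, Acaa1a, Decr2, Pex2, Pex7, Pex10, Pex16 and Pex26 were lower under each of them.

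**Figure D3:**
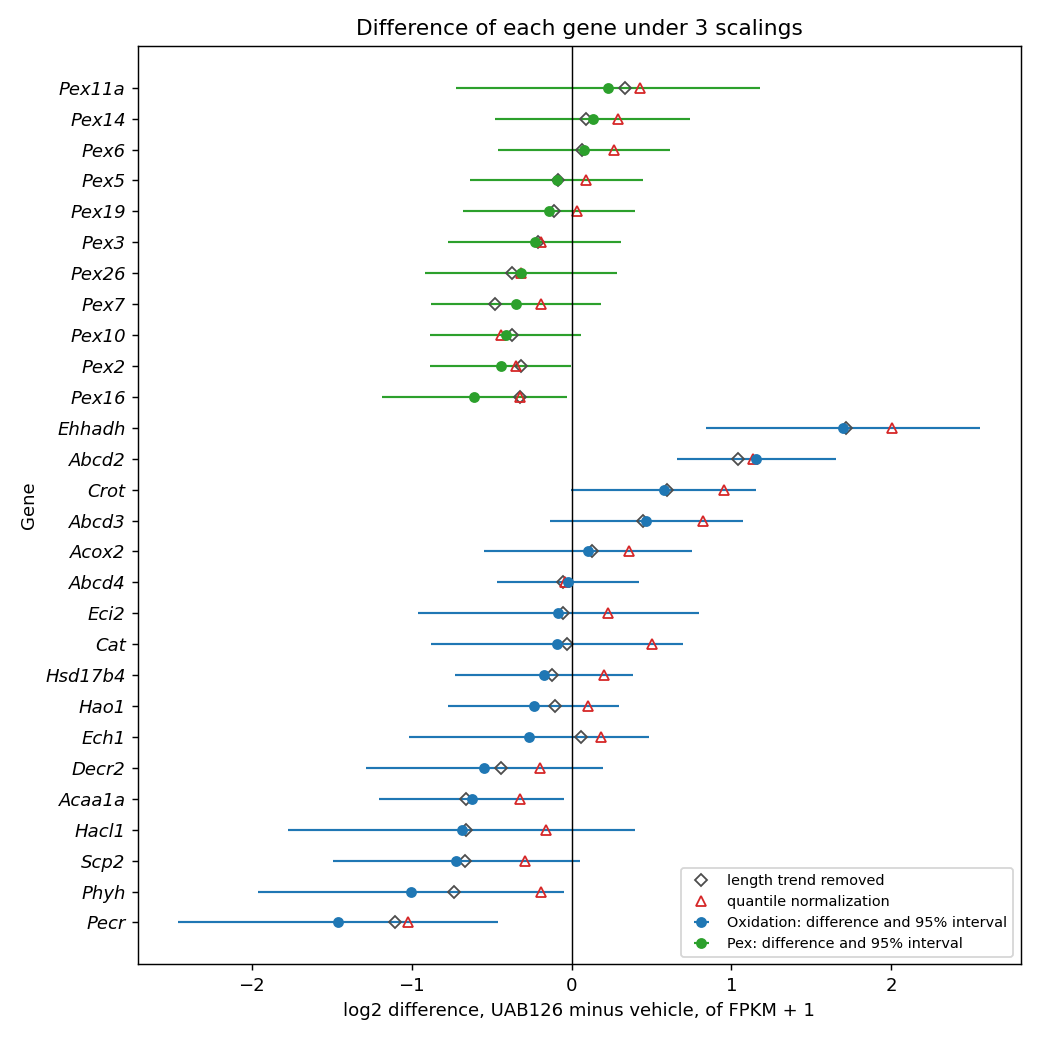
Log2 difference of each of the 28 genes, UAB126 minus vehicle (filled circles with 95% intervals from limma; blue, oxidation; green, Pex), with the value after removal of the length trend (open diamonds) and after quantile normalization (open triangles). Ehhadh at 1.70 and Abcd2 at 1.16 stand to the right, Pecr at -1.46 to the left, and quantile normalization moves abundant genes such as Cat (from -0.09 to 0.51) to the right.

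Transcript length ran alongside the differences at the low end. Of the 4 genes with longest transcripts under 2000 bases (Pecr, Ech1, Pex16 and Phyh), 3 were lower in both UAB126 libraries. The share of all genes of that length lower in both was not computed, so this count is no result about these genes. The median over all genes in the shortest of 10 length groups was -0.42. Ech1, with 1267 bases, turned from -0.27 to 0.06 when the trend was removed. Scp2 (2640 bases), Hacl1 (2906 bases) and Acaa1a (3668 bases) were in length groups whose medians lay between -0.06 and 0.03, and with the trend removed their differences were -0.67, -0.66 and -0.66. Vehicle replicate 2 was the highest and UAB126 replicate 1 the lowest library in 6 of the 28 genes, and in 2461 of all 10786. With the length trend removed, 11 of the 28 were lower and 4 higher in both UAB126 libraries, against 12 and 4 on the deposited scale. The shares of all genes on each side after this removal were not computed. The part of length, of hepatocyte RNA and of level in these differences was not tested.

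**Figure D4:**
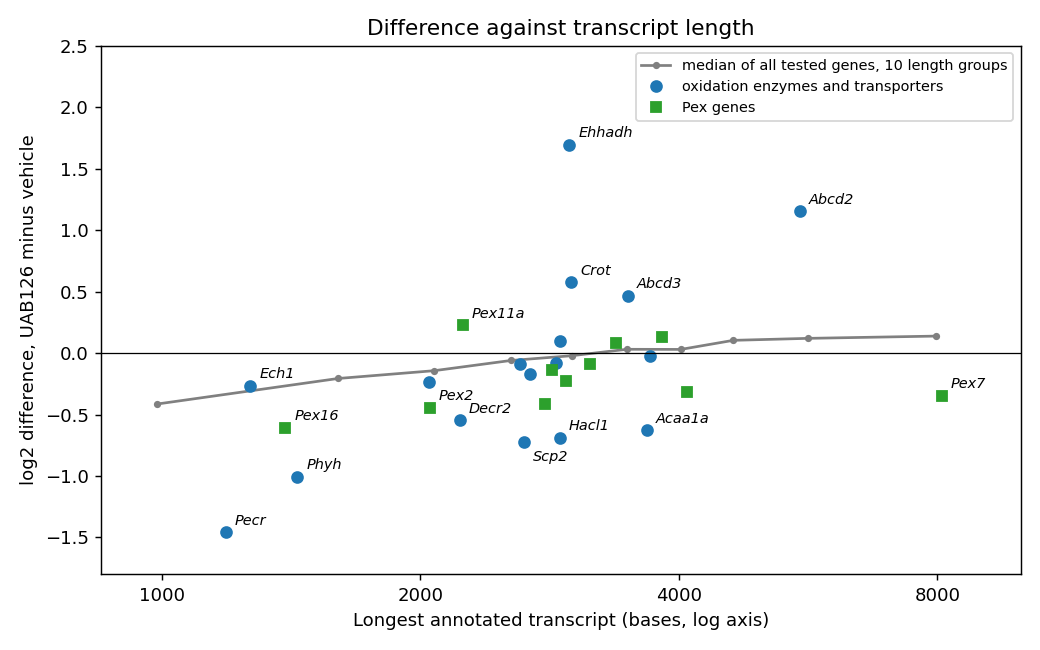
Log2 difference (UAB126 minus vehicle) of the 28 genes against the longest annotated transcript (bases, log axis; blue circles, oxidation; green squares, Pex), with the median of all tested genes in 10 length groups (grey line). The grey line climbs from -0.42 to 0.14; Pecr and Phyh lie below it at short length, and Ehhadh, Abcd2, Crot and Abcd3 above it.

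In a wider list of 52 further genes, chosen by name for the peroxisome, 40 were tested and 0 passed. Both UAB126 libraries were lower in 23 (57.5%) and higher in 3 (7.5%), against 26.9% and 22.7% of all genes. The median difference was -0.25. In 14 of the 40, vehicle replicate 2 was the highest library and UAB126 replicate 1 the lowest, against 2461 of all 10786. The part of library order, length or level in this list was not tested. At an unadjusted limma p under 0.05 there were 6 lower and 0 higher of the 40, against 8.38% and 5.03% of all genes. Acbd4, which tethers peroxisomes to the endoplasmic reticulum, was at 47.3 and 50.1 FPKM in vehicle against 27.1 and 28.1 FPKM under UAB126. Tysnd1, the protease that processes thiolase and other imported enzymes, was at 103.9 and 114.3 FPKM against 67.4 and 69.4 FPKM. Nudt7, a CoA hydrolase, was at 757 and 1005 FPKM against 555 and 459.9 FPKM, and Agxt, which clears glyoxylate, at 315 and 538 FPKM against 205 and 243 FPKM. After quantile normalization the Nudt7 difference was -0.32, with overlap, while Acbd4, Tysnd1 and Agxt stayed lower in both UAB126 libraries. The 3 higher genes were Crat, Mpv17 and Agps. Crat, carnitine acetyltransferase, was at 25.4 and 22.1 against 29.7 and 32.7 FPKM. Mpv17, a membrane protein gene whose place in peroxisomes was not checked, was at 21.1 and 14.4 against 26.2 and 22.4 FPKM. Agps, of ether lipid synthesis, was at 1.28 and 1.31 against 2.204 and 1.62 FPKM.

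Among 18 tested genes of a PPAR-alpha list outside the peroxisome set, 7 (38.9%) were higher and 1 (5.56%) lower in both UAB126 libraries, against 22.7% and 26.9% of all genes. Of the 18, 1 passed as higher, where 0.0464% of all genes did: the hormone gene Fgf21 (4.51 and 3.44 against 67.6 and 111.1 FPKM, limma adjusted p = 0.0345). Without UAB126 replicate 2, 0 of all genes passed, Fgf21 included. The median difference of the list was 0.14, against -0.03 over all genes. The microsomal fatty acid hydroxylase Cyp4a14, which may share reads with near-identical copies, measured 275 and 46.4 FPKM without UAB126 and 1302 and 2655 FPKM with it (4.02 ± 0.87, limma adjusted p = 0.227). Cyp4a10 was at 234 and 73.4 against 305 and 734 FPKM. Both Cyp4a genes had their lowest level in vehicle replicate 2 and their highest in UAB126 replicate 2. So had Fgf21, Pex11a and each of the higher genes Ehhadh, Abcd2, Abcd3 and Crot. The share of all genes with this order of libraries was not computed. Ppargc1a, a coactivator, was at 1.26 and 1.44 against 2.01 and 2.46 FPKM, and Angptl4, a lipase inhibitor, at 63.8 and 90.0 against 92.7 and 154.8 FPKM. Fabp1, the liver fatty acid binding protein, was the 1 lower gene, with 80711 and 74496 FPKM in vehicle, compared with 34989 and 40938 FPKM under UAB126. It turned to a difference of 0.59, with overlap, after quantile normalization.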

How the data were processed

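Liver poly(A) RNA was sequenced from both ends, per the labels' protocols. The submitters' processing notes name mm10, the aligner STAR 2.5.1b, the trimmer Trim Galore 0.4.1, Cuffdiff, and Cufflinks 2.2.1; settings and annotation are unstated there. The authors deposited 1 table of FPKM values (27216 rows, a column per library), which carry no fragment counts, so no count test was run. Rows without a symbol (3634) were left out and rows of 1 symbol were summed. Symbols whose mean reached 1 FPKM (10786) were fitted as log2(FPKM + 1) with limma 3.58.1 in R 4.3.3 (a single group term, prior variance trended on intensity, 5.35 degrees of freedom), two-sided, and Benjamini-Hochberg adjusted over all of them; the threshold was 0.05. An exact permutation of 2 against 2 libraries cannot go below 0.333. The fit was checked on data made with known differences. Positions and longest transcripts came from GENCODE M21 (GRCm38, the same assembly as mm10). The deposited locus of 15 of the 28 genes spans other coding genes, and strand was not stated, so overlapping genes may share reads. Relative depth is the modal ratio of values under 0.3 FPKM. The length trend was removed per library with lowess (span 0.3). The genes, lists and tests were chosen with earlier results of these data known. Genes were described with every library's value where groups did not overlap or the unadjusted p was under 0.05, and otherwise by role; from the 2 further lists up to 5 per direction with the lowest p and no overlap were named. Protein sequences were not used here. Some results of the wider peroxisome list are not reported here. Python 3.11.15 and pandas 2.3.3 were used for the rest.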

Additional observations from a re-analysis of the deposited data

How the results depend on the processing

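Only 2 libraries a group and unknown absolute depth limit every value. Of the 28 genes, 16 kept their direction under each of the 7 alternatives that change a gene's estimate (the pseudocount, quantile normalization, the length trend and leaving out each library). The other 5 leave the estimates of the genes they keep as they are. Of these, the filter at a mean of at least 5 FPKM drops Abcd2, Abcd4 and Pex10. With that filter, 3 oxidation genes were higher and 7 lower in both UAB126 libraries, and 0 Pex genes were higher and 4 lower. The shares of all genes on each side were not computed at that filter. The oxidation median was then -0.24. After quantile normalization the difference turned to 0.20 for Hsd17b4, 0.23 for Eci2, 0.18 for Ech1, 0.51 for Cat, 0.10 for Hao1, 0.088 for Pex5 and 0.037 for Pex19, and with the length trend removed to 0.062 for Ech1. Leaving out 1 library gave ranges across 0 for Abcd4 (-0.083 to 0.039), Acox2 (-0.17 to 0.37), Eci2 (-0.53 to 0.36), Ech1 (-0.57 to 0.035), Cat (-0.33 to 0.15), Pex5 (-0.25 to 0.068), Pex14 (-0.12 to 0.38), Pex6 (-0.050 to 0.21), Pex19 (-0.31 to 0.028) and Pex11a (-0.20 to 0.66). The cause was not tested. Over the same fits the oxidation median ran from -0.30 (without vehicle replicate 2) to -0.11, the Pex median from -0.35 to -0.036 (without vehicle replicate 1), and oxidation minus Pex from -0.092 to 0.067. With 1 library left out, oxidation genes with every UAB126 value above every vehicle value numbered 4 to 7, and below 7 to 11. For Pex genes these counts were 0 to 3 and 5 to 8. A lone library stands apart from 2 more easily than 2 from 2. The shares over all genes were not computed in these fits, so the counts are no result about these genes. Of oxidation genes 0 to 2 passed (Ehhadh and Abcd2, without vehicle replicate 1), of Pex genes 0, and of all genes 0 (without UAB126 replicate 2) to 442 (without vehicle replicate 1), with 56 without vehicle replicate 2. The oxidation median was 0.18 after quantile normalization and -0.056 with the length trend removed, and oxidation minus Pex 0.37 and 0.15. Quantile normalization left 4 oxidation genes lower and 2 Pex genes higher, with no share of all genes computed. Oxidation minus Pex was -0.053 at a mean of at least 5 FPKM and -0.0094 with the Acaa1b and Pex13 rows counted, an alternative added after the data were seen. All genes passing numbered 27 with a pseudocount of 0.1, 2 with no filter and 24 after quantile normalization, against 15. With the replicate number as a block, which the labels do not tie to a pairing of animals (correlation of same-numbered deviations across genes 0.18), 148 genes passed, 1 of them an oxidation gene (Pecr, limma adjusted p = 0.0405).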

Other observations

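Within a library, the level of the L-bifunctional enzyme gene Ehhadh relative to the D-bifunctional enzyme gene Hsd17b4 is unaffected by a constant scaling factor per library, though not by quantile normalization. This ratio of FPKM was 0.415 and 0.247 in vehicle replicates 1 and 2 and 1.05 and 1.32 in UAB126 replicates 1 and 2, so Ehhadh was below Hsd17b4 in both vehicle libraries and above it in both UAB126 libraries. Abcd2 stood at 0.808% and 0.813% of the Abcd3 level in vehicle and at 1.62% and 1.77% with UAB126. Both pairs were chosen after their values were seen, and no test was run on them.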
